A study of Mus musculus with 3 samples.

Results

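The genes described here are Lin28a, Lin28b, Hmga1, Hmga2, Igf2bp1, Igf2bp2, Igf2bp3, Myc, Mycn and Mycl, regulators typical of early embryonic progenitor cells. They were chosen by name, and each gene's value was the average of its probe sets that carry only that gene symbol. Of the 10 genes, 8 had such a probe set, among 19938 genes named in this way; Hmga1 and Igf2bp2 are not analysed here. Expression was measured on 3 Affymetrix arrays of 1 group, ureteric tip cells of CD-1 mouse embryos at 10.5 days post coitum (Theiler stage 18), of unknown sex. Every embryo carried the transgene Tg(Hoxb7-EGFP)33Cos, whose green fluorescent protein is under Hoxb7 control and so labels the nephric duct as well as the bud. Each array held the sorted fluorescent cells of 1 bud, not pooled, after 1 round of RNA amplification. With 1 group there is no comparison between conditions, and the questions open to the data are which of these genes lay above the arrays' background and how they differed between buds.

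The LIN28 proteins bind precursors of the let-7 microRNAs and block their maturation. Mature let-7 represses growth genes, among them Hmga2, the Igf2bp genes, Myc, Mycn and the Lin28 genes themselves, so LIN28 and let-7 oppose each other through development. In the mouse kidney Lin28b and let-7 are known for their part in timing the end of nephron formation, and Mycn for its part in growth of the early kidney. Hmga2 codes for an architectural chromatin protein with AT-hooks, the Igf2bp genes for RNA-binding proteins that stabilize or localize messenger RNAs such as Igf2 and Myc, and the Myc genes for transcription factors that bind DNA with the partner MAX.

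The let-7 family is defined by its seed, bases 2 to 8 of the mature RNA, shown in capitals to make plain that these microRNAs share the stretch that recognises the growth genes above. The sequences are RefSeq's, 5′ to 3′, on GRCm38.p6.
let-7a, chr13:48538239-48538260, minus strand: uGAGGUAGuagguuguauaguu
let-7c, chr16:77599672-77599693, plus strand: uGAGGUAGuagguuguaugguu
let-7d, chr13:48536078-48536099, minus strand: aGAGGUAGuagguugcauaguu
let-7e, chr17:17830366-17830387, plus strand: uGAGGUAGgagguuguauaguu
let-7f, chr13:48537889-48537910, minus strand: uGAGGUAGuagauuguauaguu
let-7g, chr9:106178846-106178867, plus strand: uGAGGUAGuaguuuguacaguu
let-7i, chr10:122985698-122985719, minus strand: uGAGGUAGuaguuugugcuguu
miR-98, chrX:151913229-151913250, plus strand: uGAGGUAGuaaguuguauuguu
miR-125a, chr17:17830817-17830840, plus strand: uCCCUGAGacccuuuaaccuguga
miR-99b, chr17:17830194-17830215, plus strand: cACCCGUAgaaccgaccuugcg
All listed let-7 members and miR-98 carried the seed GAGGUAG, while miR-125a and miR-99b, whose genes neighbour let-7 genes, carried the seeds CCCUGAG and ACCCGUA.

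LIN28 recognises the loop of the let-7 precursor, where its zinc knuckles contact the bases GGAG. The hairpins of the 2 let-7 genes above background on these arrays, of let-7g and of miR-98 are given with that motif, where it lay between the arms, in capitals.
Mirlet7i, chr10:122985640-122985724, minus strand: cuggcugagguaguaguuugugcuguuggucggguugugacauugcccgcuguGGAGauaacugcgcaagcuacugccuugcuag
Mirlet7f-1, chr13:48537829-48537917, minus strand: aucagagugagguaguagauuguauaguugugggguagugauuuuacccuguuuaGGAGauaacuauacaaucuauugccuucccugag
Mirlet7g, chr9:106178840-106178927, plus strand: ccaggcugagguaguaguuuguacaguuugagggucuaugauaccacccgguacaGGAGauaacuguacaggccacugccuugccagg
Mir98, chrX:151913214-151913321, plus strand: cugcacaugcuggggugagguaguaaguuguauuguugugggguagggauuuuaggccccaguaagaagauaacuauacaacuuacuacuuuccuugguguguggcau
GGAG, searched on the RNA strand, lay between the arms in 9 of the 10 let-7 family hairpins whose genes were measured, miR-98 being the exception. Over all let-7 family hairpins in the table it did so in 9 of 12 (75%), since those of let-7b and let-7c-2 lacked it too. Of all 645 mouse hairpins with both arms located in the same table, 8.22% held it there.

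All 8 measured genes had signals above background. Background was set on each array as the 95th percentile of 1035 olfactory receptor probe sets, since the kidney is taken not to need smell receptors, and was 5.40, 5.45 and 5.41 log2 on arrays 1, 2 and 3. The moderated one-sided test of limma, adjusted over all named genes by Benjamini-Hochberg, placed 53.0% of named genes above it at an adjusted p under 0.05. The median height over background was 2.39 log2 for the 8 genes and 0.22 log2 for all named genes. Of all probe sets as deposited, 40.7% hold 1 identical value on all 3 arrays and a further 24.4% hold equal values on exactly 2 arrays, within 1e-06 log2. Of the 9 probe sets of these 8 genes, 2 were identical on all arrays, 5 were equal on exactly 2 and 2 had 3 distinct values. An SD of 0 is therefore a property of the table, and the 14486 identical probe sets share only 3554 different values between them. Because tied values understate the spread, each test was repeated with an SD floor of 0.19 log2, the median SD of genes with 3 distinct values, which placed 46.2% of named genes above background. With the floor all 8 genes kept their calls (limma, adjusted p at most 0.00193).

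**Figure D1:**
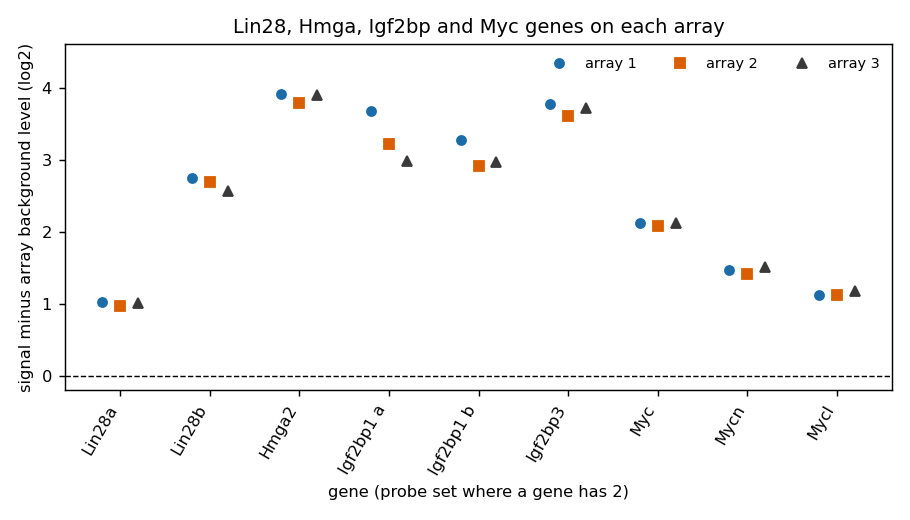
Signal minus the array's own background level (log2, vertical axis) for each gene, with Igf2bp1 split into its 2 probe sets (a and b), on arrays 1, 2 and 3 (circle, square, triangle). The dashed line at 0 is the 95th percentile of olfactory receptors, and every point lies above it.

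Lin28a, the LIN28 protein that recruits uridylating enzymes to precursors of let-7, had a signal of 6.42 log2 on every array. That value was identical across the table, and 3 probe sets shared it, so nothing can be said of how the buds differed. Its height over background was 1.00 log2 (limma, adjusted p = 0.00193 with the SD floor). Lin28b, its paralog, had signals of 8.15, 8.15 and 7.98 log2 on arrays 1, 2 and 3. Arrays 1 and 2 were equal and array 3 was the lowest, by 0.17 log2. The mean of Lin28b was 8.09 ± 0.10 log2 (SD, n = 3), 2.67 log2 over background (limma, adjusted p = 0.00016 with the SD floor). Signals of different probe sets depend on their probes, so the values of Lin28a and Lin28b, and of the genes below, were not set against each other.

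Lin28a also marks primordial germ cells, which migrate near the early kidney at this stage. The germ cell list was above background in 3 of 12 members (25%, against 53.0% of all named genes): Kit, a receptor tyrosine kinase, Nanos3, an RNA-binding protein, and the interferon-induced membrane protein gene Ifitm3. Among the 9 members that did not pass were Pou5f1 (4.81 ± 0.22 log2, SD, n = 3), Sox2 (4.23 ± 0.04), Nanog (4.94), Dppa3 (3.65) and Ddx4 (3.42), the last 3 with 1 value on all arrays. The members were not ranked by how well they mark germ cells, and the part of germ cells in the Lin28a signal was not tested. In RNA from many cells, fewer cells of a type and less RNA per cell cannot be told apart.

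Most genes of the let-7 microRNAs that LIN28 acts on were not above background. The list of let-7, miR-125, miR-99 and miR-100 genes was above it in 3 of 16 measured members (18.8%, against 53.0% of all named genes), with a median height of -1.12 log2. The share of all microRNA genes above background was not counted, so a low share cannot be called particular to this list. Within it, 2 of 10 genes of the let-7 family were above background, and the other 8 were not. Mirlet7i had signals of 6.02, 6.69 and 6.42 log2 on arrays 1, 2 and 3 (limma, adjusted p = 0.00283). Mirlet7f-1 had 5.88, 6.65 and 5.78 log2 (limma, adjusted p = 0.0251). Both were among the 6 genes highest on array 2, of the 8 let-7 family genes that were not identical on all arrays. The others of these 6 lay below background. The background level was also highest on array 2, at 5.45 log2, and how many of all named genes were highest there was not counted.

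Mirlet7e, at 5.40, 5.72 and 5.72 log2, did not pass (limma, adjusted p = 0.0615). Mirlet7a-1 averaged 4.44 ± 0.03 log2 (SD, n = 3), Mirlet7a-2 3.56 ± 0.21, Mirlet7c-1 3.32 ± 0.08 and Mirlet7d 4.40 ± 0.04, none above background. Of the other microRNA genes, Mir99b was above background at 6.42, 6.42 and 6.55 log2 (limma, adjusted p = 0.00172 with the SD floor), and the 5 others were not. These probe sets match the hairpin gene and read any transcript that holds it, so levels of mature microRNA were not measured. Mirlet7b and Mirlet7c-2 had no probe set of their own symbol alone and are not analysed here.

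**Figure D2:**
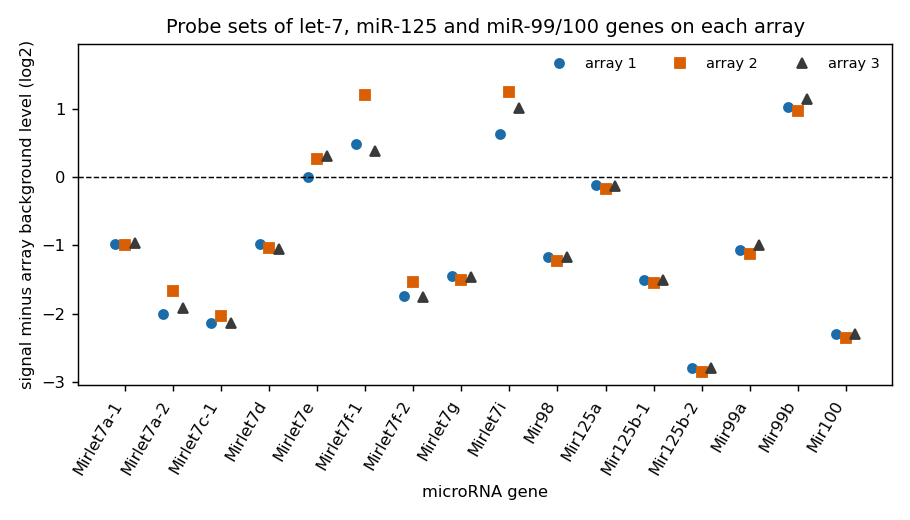
Signal minus the array's own background level (log2, vertical axis) for the 16 measured genes of let-7, miR-125, miR-99 and miR-100 on arrays 1, 2 and 3. Mirlet7f-1, Mirlet7i and Mir99b lie above the dashed background line on every array and most others lie below it.

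The proteins that make or destroy let-7 had 15 of 16 genes above background (53.0% of all named genes), and 14 with the SD floor (46.2%), which lost Khsrp, a protein that promotes processing of let-7 (limma, adjusted p = 0.294). Drosha and Dgcr8, which form the nuclear processor of primary microRNAs, were at 8.33 log2, identical on all arrays, and 8.43 ± 0.13 log2 (SD, n = 3). The exporter gene Xpo5 was at an invariant 7.28 log2, and Dicer1, whose product cuts the hairpin, at 9.55 ± 0.03. Tut4, a terminal uridyltransferase that works with LIN28A on let-7 precursors, was at 10.33 log2, identical on all arrays. Dis3l2, the exonuclease that degrades the uridylated precursor, was the member that did not pass, at 6.08, 5.57 and 5.64 log2 (limma, adjusted p = 0.0571). Every array was above its own background for Dis3l2, with array 1 the highest.

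Hmga2 had signals of 9.32, 9.25 and 9.32 log2 on arrays 1, 2 and 3. Arrays 1 and 3 were equal, and array 2 was lower by 0.07 log2. The mean was 9.29 ± 0.04 log2 (SD, n = 3), 3.87 log2 over background (limma, adjusted p = 9.66e-05 with the SD floor). The next list held other high mobility group genes, the gene Bmi1 and the Ink4 genes, which are cell cycle inhibitor genes. Of these inhibitor genes, Cdkn2a is held down by Hmga2 in mouse neural stem cells. The list was above background in 10 of its 12 measured members, against 53.0% of all named genes. Bmi1, at 7.21 ± 0.26 log2 (SD, n = 3), was above background. The chromatin genes Hmgb1 (9.33 ± 0.29 log2, SD, n = 3), Hmgb2 (11.94 ± 0.04), Hmgb3 (9.76 ± 0.08), Hmgn1 (7.41 ± 0.06) and Hmgn2 (11.69 ± 0.15) were all above it. Cdkn2a was also above it, at an invariant 5.85 log2, 0.43 log2 over background (limma, adjusted p = 0.0243 with the SD floor). The inhibitor genes Cdkn2b, at 5.41 ± 0.02 log2, and Cdkn2c, at an invariant 4.42 log2, were not.

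Igf2bp1 had the largest difference between buds among the 8 genes. Its averaged signals were 8.88, 8.52 and 8.38 log2 on arrays 1, 2 and 3, a mean of 8.60 ± 0.26 log2 (SD, n = 3) and 3.18 log2 over background (limma, adjusted p = 0.000128 with the SD floor). Its 2 probe sets gave 9.08, 8.67 and 8.40 log2, and 8.68, 8.37 and 8.37 log2. Both were highest on array 1, with a range of 0.69 log2 for the first and 0.31 log2 for the second, and they disagreed on whether arrays 2 and 3 differed. Igf2bp3 had signals of 9.17, 9.06 and 9.13 log2, a mean of 9.12 ± 0.05 log2 (SD, n = 3), 3.70 log2 over background (limma, adjusted p = 0.0001 with the SD floor). Its 3 arrays lay within 0.11 log2 of each other.

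The proteins that act with IGF2BP1 on the coding region of Myc messenger RNA, and the writers and readers of the m6A mark that IGF2BP proteins also bind, were above background in all 10 measured members, against 53.0% of all named genes. The complex members Ybx1, Hnrnpu, Syncrip and Dhx9 were at 9.11 ± 0.02, 12.14, 11.54 ± 0.13 and 10.30 log2 (SD, n = 3), Hnrnpu and Dhx9 being identical on all arrays. Elavl1, another RNA-binding stabilizer, was at 9.02 ± 0.21 log2. The list had a median height of 3.65 log2.

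Genes of the insulin-like growth factor axis were above background in 13 of 20 members (65%), near the 53.0% of all named genes. With the SD floor 11 passed (46.2% of all named genes), as it lost the binding protein genes Igfbp6 and Igfbp7 (limma, adjusted p of 0.0841 and 0.124). Igf2, the fetal growth factor whose messenger RNA gives the Igf2bp genes their name, was at an invariant 9.12 log2, and Igf1 at 6.41 ± 0.30 log2 (SD, n = 3). The receptors Igf1r, Igf2r and Insr were at 7.22 ± 0.26, 8.19 ± 0.08 and 8.26 ± 0.14 log2. Both ligand genes and these receptors were above background.

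The binding protein genes Igfbp2 and Igfbp3, whose products hold the ligands outside the cell, differed between buds by over 1 log2. Igfbp2 had 8.53, 7.59 and 7.45 log2 on arrays 1, 2 and 3, highest on array 1. Igfbp3 had 6.32, 6.36 and 7.97 log2, highest on array 3. Array 3 was also the highest for 7 of 10 endothelial markers, and array 2 the lowest for all 10. Igfbp3 was 0.93, 0.91 and 2.56 log2 over background on arrays 1, 2 and 3. The part of endothelial cells in these values was not tested.

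Known let-7 targets outside the 8 genes were above background in all 18 measured members (53.0% of all named genes), and in 17 with the SD floor (46.2%), which lost Thbs1, a matrix glycoprotein gene (limma, adjusted p = 0.18). The list shares Igf1r, Insr and Irs2 with the growth factor axis. The GTPase gene Nras was at 10.48 ± 0.13 log2 (SD, n = 3) and the phosphatase gene Cdc25a, which starts the cell cycle transitions, at 7.96 ± 0.26. The cyclin genes Ccnd1 and Ccnd2 were at 9.43 ± 0.43 and 9.54 ± 0.31 log2. Ccnd1 had 9.84, 9.46 and 8.99 log2 on arrays 1, 2 and 3, with array 1 the highest.

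Of 12 measured imprinted and oncofetal growth genes, 11 were above background, against 53.0% of all named genes. The zinc finger genes Plagl1 and Plag1 were at 8.93 ± 0.48 log2 (SD, n = 3) and 6.63 log2, the second identical on all arrays. The Notch ligand homolog Dlk1 was at 6.68 ± 0.13, the noncoding RNA Meg3 at 6.79, identical on all arrays, and Mest at 10.73 ± 0.23 log2. Afp, the fetal serum protein of liver and yolk sac, was not above background at 4.55 log2, identical on all arrays.

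**Figure D3:**
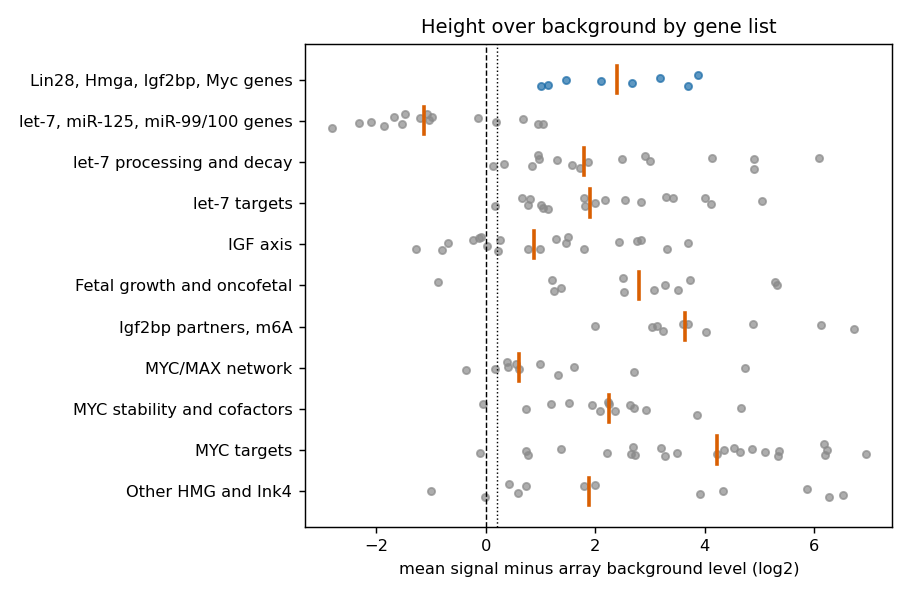
Mean signal minus the array background level (log2, horizontal axis) for every measured gene of each list, the Lin28, Hmga, Igf2bp and Myc genes on top, with the list median as an orange bar. The dashed line is background and the dotted line the median of all named genes, 0.22 log2; the microRNA genes have the median of -1.12 log2 and the MYC targets that of 4.23 log2.

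Myc had a signal of 7.53 log2 on every array, identical across the table. Its height over background was 2.11 log2 (limma, adjusted p = 0.000266 with the SD floor), and no spread between buds can be read from it. Mycn had 6.87, 6.87 and 6.92 log2 on arrays 1, 2 and 3, a mean of 6.88 ± 0.03 log2 (SD, n = 3), 1.47 log2 over background (limma, adjusted p = 0.000672 with the SD floor). Arrays 1 and 2 were equal and array 3 was higher by 0.05 log2. Mycl, the third MYC family gene, had 6.52, 6.58 and 6.58 log2, a mean of 6.56 ± 0.03 log2, 1.14 log2 over background (limma, adjusted p = 0.00133 with the SD floor). When genes of keratin-associated proteins and beta-defensins set the background, at 6.82, 6.91 and 6.87 log2, 5 of the 8 genes were above it, against 21.1% of all named genes. The calls lost were those of Lin28a, Mycn and Mycl (heights of -0.44, 0.02 and -0.30 log2, limma, adjusted p = 1 each).

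The MAX network list held Max itself, genes of MAX partners, Mlx, Mlxip, Mlxipl and Zbtb17. It was above background in 10 of 11 members (53.0% of all named genes), and in 9 with the SD floor (46.2%), which lost Mxd3 (limma, adjusted p = 0.199). Max, the partner that MYC proteins need to bind DNA, had 10.61, 9.82 and 10.03 log2 on arrays 1, 2 and 3, highest on array 1. The MAX-binding repressors Mxd1, Mxi1, Mxd3 and Mxd4 were at 5.82, 6.41 ± 0.16, 5.59 and 6.75 log2 (SD, n = 3), all but Mxi1 identical on all arrays. Mlxipl, a glucose-responsive factor that pairs with MLX, was not above background at 5.06 log2, identical on all arrays. The median height of the network was 0.61 log2, and at the 99th percentile of olfactory receptors 5 of its members were above background, where 35.3% of all named genes were.

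Of 14 measured genes that control MYC stability or serve as its cofactors, 13 were above background, against 53.0% of all named genes. Fbxw7 and Skp2, substrate receptors of ubiquitin ligases that act on MYC, were at 8.34 ± 0.27 and 7.50 ± 0.38 log2 (SD, n = 3). Aurka, a mitotic kinase that shields MYCN from FBXW7 in human neuroblastoma, was at 7.79 ± 0.33 log2. The deubiquitinase gene Usp28 was at an invariant 6.16 log2, and the ubiquitin ligase gene Huwe1 at 9.28 log2. Pim1, a kinase that phosphorylates MYC, was not above background at 5.36 log2, identical on all arrays.

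Known MYC targets were above background in 22 of 23 members, against 53.0% of all named genes, with a median height of 4.23 log2. The nucleolar genes Ncl, Npm1, Nop56 and Nop58 were at 12.36 ± 0.03, 11.65 ± 0.14, 9.65 and 10.28 log2 (SD, n = 3), the last 2 identical on all arrays. Odc1, the first enzyme of polyamine synthesis, was at 10.52 ± 0.12 log2. Shmt2, the mitochondrial serine hydroxymethyltransferase, was at 8.15 ± 0.77 log2, with a range of 1.53 log2, the widest in the list, and was highest on array 1. Tert, the telomerase reverse transcriptase, was the member not above background, at 5.32 ± 0.06 log2.

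The E-box CACGTG, the site that MYC and MAX bind, reads the same on both strands. RefSeq promoter windows of 300 bases matched 8 of the 10 genes chosen by name, Hmga1 and Igf2bp2 among them but not Myc or Igf2bp1. The E-box was in the windows of 2 of these 8 (25%), Lin28b and Igf2bp3, and of 6 of 18 matched MYC targets (33.3%), against 8.09% of all genes in the table. Genes with several windows were counted if any held it. The E-box with 10 bases on each side, in capitals, shows where the motif lies in both genes.
Lin28b, chr10:45470235-45470260, minus strand: ttgacagagtCACGTGtgctcagggg
Igf2bp3, chr6:49214962-49214987, minus strand: tgggattcctCACGTGagacgttgat
The Lin28b motif began 49 bases before the start that the window is built on, and the first of 2 in the Igf2bp3 window began 23 bases before it. A match is a description of the letters and no evidence of binding.

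Lin28a and Myc were identical on all arrays, which leaves 6 of the 8 genes with a range to describe. Of the 6, 4 held equal values on exactly 2 arrays. Quantile normalization gave Myc a range of 0.07 log2 and Mycn 0.10 log2, so ranges this small depend on the processing. The median range of these 6 between the highest and lowest array was 0.09 log2. Igf2bp1 had the widest, at 0.50 log2 over its averaged probe sets and 0.69 log2 on the brighter one alone. Among named genes not identical on all arrays and at least as bright as the lowest of the 8, the median range was 0.26 log2 (n = 4453), and 24.3% had a range over 0.5 log2. Over all 9627 genes not identical on the arrays, dim ones included, the median range was lower, at 0.18 log2. Of this wider set, 82.6% had a smaller range than Igf2bp1, at 0.50 log2, and 47.3% a smaller one than Lin28b. The shares were 34.0% for Igf2bp3, 22.5% for Hmga2, 19.4% for Mycl and 16.7% for Mycn. These shares are descriptions, since tied values narrow the ranges and each array is 1 bud. By centred profiles, the genes nearest to Igf2bp1 were Ppa2, Polr2l and Eftud2, at root mean square distances of 0.004, 0.012 and 0.013 log2. They are the 3 nearest of 1240 genes compared, of which 116 lay within 0.1 log2. The genes compared were those above background with a range of at least 0.5 log2. With 3 arrays per profile small distances are easily reached, and likeness to these genes was not tested.

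**Figure D4:**
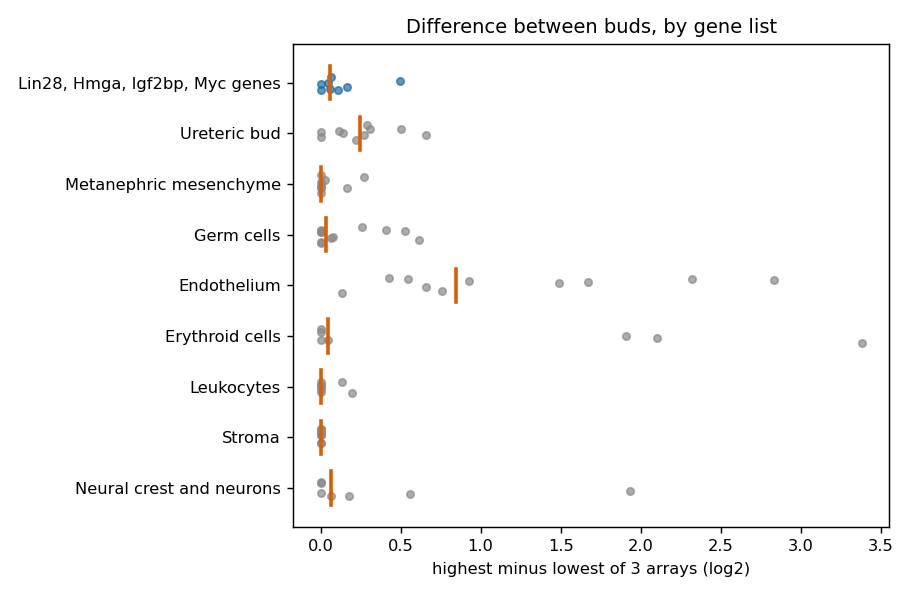
Highest minus lowest of the 3 arrays (log2, horizontal axis) for each measured gene, the Lin28, Hmga, Igf2bp and Myc genes on top and marker lists of cell types below, with list medians as orange bars. The 8 genes, with probe sets averaged, reach 0.50 log2, while endothelial and erythroid markers reach 2.83 and 3.38 log2.

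All 10 ureteric bud markers were above background (53.0% of all named genes). Ret, the receptor of the tip, was at 8.69, 8.35 and 8.18 log2 and the transcription factor gene Gata3 at 9.27, 9.06 and 9.05 log2 on arrays 1, 2 and 3. Pax2, a transcription factor gene of the early kidney, Calb1, a calcium-binding protein gene, and Hoxb7 averaged 8.22 ± 0.33, 11.47 ± 0.07 and 7.01 ± 0.15 log2 (SD, n = 3). Of the 8 bud markers that were not identical, 7 were highest on array 1. How many of all named genes were highest there was not counted, so this cannot be called particular to bud markers. Igf2bp1 was highest there too, and the part of bud cells in its values was not tested. The median height of the bud list was 3.09, 2.66 and 2.59 log2 on arrays 1, 2 and 3.

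Metanephric mesenchyme was above background in 3 of 9 measured markers, and in 2 with the SD floor (53.0% and 46.2% of all named genes). Cited1, a transcriptional coregulator of nephron progenitors, was at 7.02 ± 0.14 log2 (SD, n = 3; limma, adjusted p = 0.000527 with the floor) and the zinc finger gene Sall1 at an invariant 6.09 log2 (adjusted p = 0.00632). Wt1, at an invariant 5.60 log2, lost its call with the floor (limma, adjusted p = 0.18). Six2, Gdnf, Eya1, Osr1 and Hoxa11, at 5.20, 5.31, 5.36, 4.50 and 4.64 log2, were not above background.

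Some markers differed by more than 1 log2 between the arrays, 4 of the endothelial, 3 of the erythroid and 1 of the neural list. All 10 endothelial markers were lowest on array 2, with a median height of 0.89, 0.33 and 1.22 log2 on arrays 1, 2 and 3, and 7 of them were above background (53.0% of all named genes). Emcn, a sialomucin gene, was at 8.37, 6.73 and 9.55 log2, the cadherin gene Cdh5 at 8.22, 5.89 and 8.07 log2 and the angiopoietin receptor gene Tek at 6.69, 5.67 and 7.34 log2. Pecam1, an adhesion molecule gene, was above background at 6.27 ± 0.38 log2 (SD, n = 3). Kdr, Esam and Sox17, at 6.30 ± 0.74, 5.78 ± 0.37 and 5.87 ± 0.49 log2, did not pass. Kdr and Sox17 lay above background on every array, and Esam on arrays 1 and 3. A wide spread between arrays raises the p-value, so not passing does not mean no signal. With array 1, 2 or 3 left out, 10, 9 and 8 endothelial markers passed (48.5%, 52.8% and 48.8% of all named genes).

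Of 7 measured erythroid markers 4 were above background, and 3 with the SD floor, near the 53.0% and 46.2% of all named genes. The embryonic globin gene Hba-x passed at 7.98, 5.87 and 7.39 log2, as did Slc4a1 and Tal1, at 5.83 and 6.10 log2, while Alas2, at 5.64 log2, lost its call with the floor. The globin gene Hbb-y did not pass at 8.86, 5.48 and 8.52 log2 (limma, adjusted p = 0.053), nor did Hbb-bh1 at 6.32, 4.42 and 5.32 log2 or Klf1 at 4.88 log2. Hbb-y was nonetheless above background on every array, by 3.46, 0.02 and 3.11 log2 on arrays 1, 2 and 3. The 3 globin genes were lowest on array 2.

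Neural crest and neurons were likewise above background in 4 of 7 measured markers, and in 3 with the SD floor (53.0% and 46.2% of all named genes). Sox10, Isl1 and Erbb3 passed at 6.29, 5.75 and 6.68 log2, and Hand2, at 5.64 log2, lost its call with the floor. Tubb3, a neuronal tubulin gene, did not pass at 7.86, 5.93 and 6.09 log2 (limma, adjusted p = 0.0608), nor did Elavl4 and Foxd3, at 4.20 and 5.23 log2. Tubb3 was above background on every array, by 2.46, 0.47 and 0.68 log2 on arrays 1, 2 and 3. Leukocytes were above background in 2 of 8 markers (25%, against 53.0%), Cx3cr1 and Cd68 at 6.21 and 6.31 log2, while Ptprc, Csf1r and Adgre1, at 4.48, 4.56 and 4.10 log2, were not. Stroma was above it in 3 of 9 (33.3%, against 53.0%), Col1a1, Col3a1 and Twist1 at 6.44, 6.02 and 5.82 log2, while Foxd1, Tcf21, Pdgfra and Pdgfrb, at 3.42, 4.65, 4.94 and 4.48 log2, were not.

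With array 1, 2 or 3 left out, all 8 genes stayed above background, against 48.5%, 52.8% and 48.8% of all named genes. They did so too with the 90th percentile (63.7% of all named genes), vomeronasal receptors as background (65.0%), quantile normalization (52.8%), the brightest probe set of each gene (53.4%), the dimmest 25% of probe sets left out (65.0%) and a plain count of genes above background on every array (54.0%). With identical genes left out, the 6 that remained were above background, against 63.1%.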

How the data were processed

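The deposited values are 1 log2 number per probe set and array. The authors made them in Expression Console of Affymetrix, according to the submitters' processing notes. The log2 base was inferred from the values, and how background, normalization and summarization were handled is not stated in what was used here. Column medians were 5.47, 5.50 and 5.48 log2, and the values were used as deposited. Of 35557 probe sets, 21789 had 1 gene symbol, 1621 several and 12147 none in the platform annotation. Of the first, 21698 had a gene ID in the RefSeq table (GRCm38.p6), which changed 0 symbols. Probe sets of 1 gene were averaged.

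R 4.3.3 with limma 3.58.1 fitted the mean of value minus background level over all named genes. Its prior SD was 0.05 log2, with 1.71 prior degrees of freedom. On simulated arrays with tied values this fit also called genes placed at background, so results with an SD floor are given beside it. Simulated tied genes had no spread at all, whereas tied genes here keep that of the background level. The simulation therefore gives no rate of such calls for these data, and how far the floor removes them is not reported here. The labels do not say whether buds came from separate embryos or litters, so without the floor the p-values measure only the spread between these samples, with limma's prior. For Lin28a and Myc that spread is of the background level alone. With the floor, an SD below 0.19 log2 is replaced by that fixed value, as for all of the 8 genes but Igf2bp1. Their p-values with the floor do not measure a spread between buds. Precision is limited by the number of arrays. For each of 10 related and 8 marker lists the first 5 measured genes are named, with those above or not above background where 5 or fewer, and those with a range over 1 log2. The members and lists were chosen with earlier results of these data known. The 13 alternatives changed background genes or percentile, normalization, probe set choice, the filter on dim probe sets, ties, the model and the arrays.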

Additional observations from a re-analysis of the deposited data

How the results depend on the processing

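No paired analysis was possible because the series has 1 group. Over 13 alternatives, 1 of them (the SD floor) chosen after seeing the data, 223 counts of genes above background stayed within 1.5 times the reported count and 36 did not; the cause was not tested unless named. The table's ties and the number of arrays limit what the spread can show. When keratin-associated proteins and beta-defensins set the background, 5 of the 8 genes passed, with Lin28a at -0.442 log2 and Mycl at -0.303 log2, both below it, and Mycn at 0.02 log2. All named genes passing then numbered 4210 (21.1%). Let-7 processing was at 9 of 16, let-7 targets at 10 of 18, the growth factor axis at 5 of 20 and the MAX network at 3 of 11. The let-7 and miR-125 genes were at 0 of 16 and mesenchyme at 0 of 9. Endothelium was at 0 of 10, erythroid at 0 of 7, leukocyte at 0 of 8, stroma at 0 of 9 and neural crest at 0 of 7 (limma). At the 99th percentile of olfactory receptors, 7034 named genes passed (35.3%). There the MAX network was at 5 of 11, and mesenchyme and stroma were at 1 of 9 each. Endothelium was at 2 of 10, neural crest at 2 of 7 and erythroid at 0 of 7. With vomeronasal receptors, or the 90th percentile, 65.0% and 63.7% of all named genes passed. Under either, the let-7 and miR-125 genes were at 5 of 16, mesenchyme at 6 of 9 and leukocytes at 4 of 8. With identical genes left out, fewer genes are tested, and 6078 named genes passed (63.1%). Let-7 processing was at 8 of 9, let-7 targets at 11 of 11, fetal growth genes at 7 of 7 and the MAX network at 4 of 4. Mesenchyme was at 1 of 3, germ cell at 1 of 6 and leukocyte at 1 of 2. Erythroid and neural crest were at 2 of 4 each, and no stroma gene was left. Under quantile normalization the ranges of Lin28a, Myc and Mycn were 0.02, 0.07 and 0.10 log2, where the deposited values gave 0, 0 and 0.05 log2. Leaving out each array in turn gave 8 of the 8 genes each time, and 9666 to 10526 named genes.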
